A study of Arabidopsis thaliana with 6 samples.

Results

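The genes described here are the neighbours of MSH1 on chromosome 3 of Arabidopsis thaliana. They are the loci whose identifiers run from AT3G24000 to AT3G24900, without MSH1 itself (AT3G24320). Within these boundaries no measured value decided which loci were taken, but the members were chosen with earlier results of these data known. They number 115 of the 33602 loci in the count files, 40 before MSH1 and 75 after it in locus order. All 114 that matched the annotation lie on chromosome 3, in a stretch of 429.3 kb from base 8672718 to base 9101991 of assembly TAIR10.1. AT3G24216 had no match.

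Messenger RNA was counted in 3 msh1 memory plants, numbered 31, 32 and 33, and in 3 wild-type plants, numbered 22, 23 and 24, with 1 library per plant. Both groups are of the Columbia-0 accession, the labels call the memory line isogenic to wild type, and they give no treatment or transgene for either group. Whole plants were frozen at early bolting, the stage at which the flowering stem starts to lengthen. The labels do not say whether the plants of a group share a parent, so p-values measure the spread between these individuals.

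MSH1 encodes a MutS-type protein that acts in plastids and mitochondria, where it limits recombination between repeats of the organelle genome. As background, msh1 memory plants descend from plants in which MSH1 was silenced by a transgene, and keep an altered growth habit after that transgene has been lost. The genes beside MSH1 share a place on the chromosome and no common function. They include enzymes, kinases, transcription factors, plastid proteins and membrane traffic proteins, with ammonium transporters and small secreted peptides among them.

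Library totals were 4608164, 5053439 and 4060216 counts in memory plants 31, 32 and 33, and 5459895, 5634049 and 5806617 counts in wild-type plants 22, 23 and 24. Levels are in CPM, the read count scaled to the library total and a TMM factor, and a count of 0 allows up to 0.522 to 0.694 CPM in a library (3 counts, counting error only). Wild-type plant 23 stood apart. Its chi-square per degree of freedom was 13.3 and 17.0 against the other wild-type plants. The other 4 pairs within a group lay between 3.23 and 6.5. Each value covers the genes that reached a minimum summed count in that pair. The summed level of the floral genes AP3, PI, SEP3 and AG was 4.27, 7.85 and 9.02 CPM in memory plants and 1.98, 4.06 and 4.35 CPM in wild-type plants. The groups overlapped only in that memory plant 31 lay below wild-type plant 24. Of these 4 genes, 2, 2 and 1 had no reads in wild-type plants 22, 23 and 24, and 0 in each memory plant. A difference in stage between the groups was not tested. RBCS1A and CAB3, which mark photosynthetic leaf tissue, summed to between 17728.7 and 22350.7 CPM in memory plants and between 21654 and 26401.3 CPM in wild-type plants.

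Transcripts of 2 genes in the stretch were higher in the memory plants, and both lie after MSH1. They are AT3G24420, a gene of the alpha/beta hydrolase superfamily, and AT3G24460, a gene for a membrane protein with a Serinc domain. No member was called lower. In whole plants, more or fewer cells of a type and more or less RNA per cell cannot be told apart. Of the 115 members, 56 had enough reads to be tested, 18 had some reads but fell below the filter on low counts, and 41 had 0 reads in all 6 plants. The 2 calls are 3.57% of the tested members, beside 1.82% of all 16928 genes tested (edgeR quasi-likelihood test, Benjamini-Hochberg adjusted p under 0.05). Upward calls made up 0.449% of all genes tested and downward calls 1.37%. DESeq2 also called 2 members, AT3G24420 and AT3G24460, beside 2.81% of the genes it tested.

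AT3G24420 lies at chr3:8862813-8865239 on the minus strand, in 2 exons, and overlaps no other annotated gene. Its transcript stood at 8.12, 7.44 and 7.40 CPM in memory plants 31, 32 and 33, and at 0.540, 0.387 and 1.39 CPM in wild-type plants 22, 23 and 24. The memory plants lay close together and all above the wild-type plants, of which plant 24 was highest. These levels come from 38, 37 and 32 reads in the memory plants and 3, 2 and 8 reads in the wild-type plants. The means were 7.65 ± 0.405 CPM in memory plants and 0.773 ± 0.542 CPM in wild-type plants (SD, n = 3 each). This is a log2 fold change of 3.25 (SE 0.464, 95% interval 2.28 to 4.30, edgeR adjusted p = 0.00455). The gene passed the filter on low counts through the memory plants alone, since none of the wild-type plants reached the filter level of 1.90 CPM. Without memory plant 31 or 33 the call was lost, with log2 fold changes of 3.20 and 3.27 (edgeR adjusted p = 0.0559 and 0.0510). Those fits called 0.198% and 0.221% of all genes tested, beside 1.82% with all plants.

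AT3G24460 lies at chr3:8885818-8893203 on the minus strand. Its protein belongs to a family named for the incorporation of serine into membrane lipids. The transcript stood at 37.6, 32.8 and 38.1 CPM in memory plants 31, 32 and 33, and at 5.04, 14.1 and 6.61 CPM in wild-type plants 22, 23 and 24. The groups did not overlap, and wild-type plant 23 was higher than the other wild-type plants. Means were 36.2 ± 2.95 CPM in memory plants and 8.59 ± 4.85 CPM in wild-type plants (SD, n = 3 each). This is a log2 fold change of 2.08 (SE 0.312, 95% interval 1.39 to 2.78, edgeR adjusted p = 0.0106). Leaving out any 1 memory plant took the edgeR adjusted p over the threshold, to between 0.0643 and 0.0840, with log2 fold changes of 2.04 to 2.15. Those fits called 0.198% to 0.377% of all genes tested, beside 1.82% with all plants. Without wild-type plant 23 the log2 fold change was 2.63 (edgeR adjusted p = 1.65e-07), in a fit that called 5.93%. The annotation places AT3G24463 inside the span of AT3G24460 on the same strand, with no shared exon base. It is not a row of the count files.

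The promoter sides of AT3G24420 and AT3G24460, and of HCF101 and VRN5 between them, are shown so that the risen genes can be set beside neighbours that were tested and not called. Each run is the 250 bases before the annotated start, read 5′ to 3′ on the gene's own minus strand, from RefSeq's assembly TAIR10.1. Capitals mark matches to the W-box core TTGAC (or GTCAA on the other strand) and to the CCA1 binding site AAAAATCT (or AGATTTTT).
AT3G24420, chr3:8865240-8865489: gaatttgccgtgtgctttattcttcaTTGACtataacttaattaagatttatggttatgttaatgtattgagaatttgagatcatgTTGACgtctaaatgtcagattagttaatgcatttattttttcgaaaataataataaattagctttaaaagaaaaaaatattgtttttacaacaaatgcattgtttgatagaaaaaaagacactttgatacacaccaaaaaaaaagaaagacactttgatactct
HCF101, chr3:8872347-8872596: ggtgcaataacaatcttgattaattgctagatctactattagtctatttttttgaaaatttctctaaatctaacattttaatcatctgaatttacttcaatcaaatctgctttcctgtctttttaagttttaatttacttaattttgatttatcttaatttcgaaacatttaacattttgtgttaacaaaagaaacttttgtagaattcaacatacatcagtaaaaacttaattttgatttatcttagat
VRN5, chr3:8878482-8878731: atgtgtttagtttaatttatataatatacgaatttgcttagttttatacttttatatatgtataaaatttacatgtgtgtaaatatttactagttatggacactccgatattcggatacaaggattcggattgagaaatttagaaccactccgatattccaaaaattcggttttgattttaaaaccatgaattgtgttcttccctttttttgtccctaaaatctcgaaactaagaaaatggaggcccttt
AT3G24460, chr3:8893204-8893453: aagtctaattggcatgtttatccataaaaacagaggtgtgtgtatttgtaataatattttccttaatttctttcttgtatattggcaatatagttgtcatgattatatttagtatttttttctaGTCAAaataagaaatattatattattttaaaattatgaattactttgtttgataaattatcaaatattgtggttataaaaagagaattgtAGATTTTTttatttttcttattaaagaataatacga

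In the AT3G24420 run the W-box core starts at positions -224 and -164 from the start of the gene. In the AT3G24460 run it starts at -126, and the CCA1 site at -36. The letters of the evening element AAAATATCT and of the G-box CACGTG are in none of the 4 runs, and the HCF101 and VRN5 runs hold none of the 4 motifs. All motifs were read on both strands, and none of them contains another. The W-box core is common, in 44.5% of 32834 such runs over the genome and in 31 of the 56 tested members. The CCA1 site is in 6.27% of all runs and in 2 tested members, the G-box in 5.83% and 4, and the evening element in 2.22% and 0. A match describes the letters only.

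**Figure D1:**
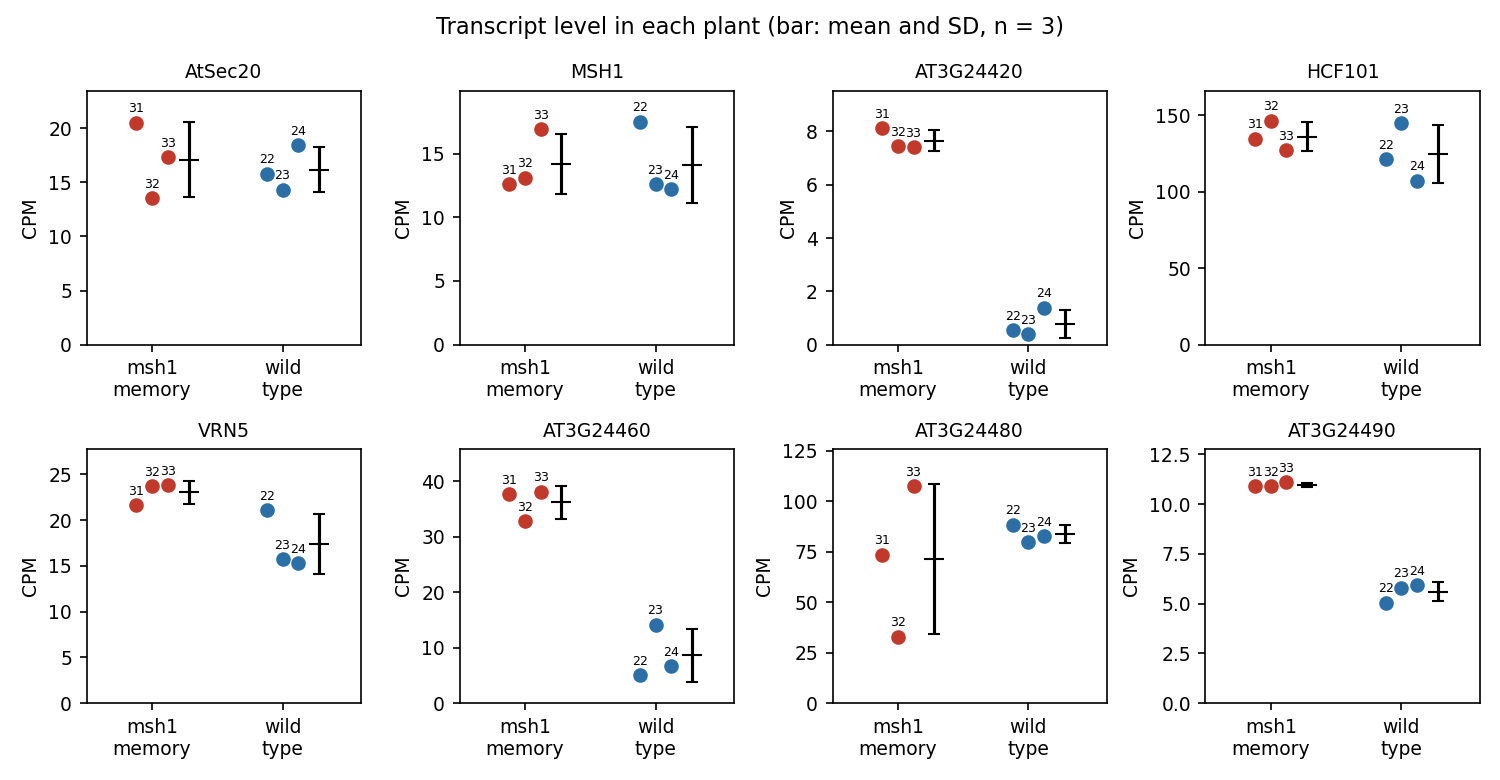
Transcript level in CPM (vertical axis, from 0) in each plant for 7 members and MSH1, with memory plants 31 to 33 at left and wild-type plants 22 to 24 at right of each panel, and bars for the mean and SD of 3 plants. AT3G24420 and AT3G24460 separate the groups widely, VRN5 and AT3G24490 by less, and MSH1, AtSec20, HCF101 and AT3G24480 overlap.

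The 2 risen genes are 20.6 kb apart, and 33.1 and 56.1 kb separate them from MSH1. HCF101, which carries iron-sulphur clusters to photosystem I in plastids, lies between them at chr3:8868583-8872346. It had 134.6, 146.2 and 127.1 CPM in memory plants and 121.3, 144.6 and 107.2 CPM in wild-type plants, groups that overlapped, with a log2 fold change of 0.13 (95% interval -0.195 to 0.454). VRN5, a partner of the Polycomb complex at the floral repressor FLC during vernalization, is next at chr3:8875784-8878481. Its levels were 21.6, 23.7 and 23.8 CPM in memory plants and 21.1, 15.7 and 15.3 CPM in wild-type plants. The memory plants were all higher, though plant 31 only just exceeded wild-type plant 22, and the gene was not called (log2 fold change 0.41, SE 0.181, edgeR adjusted p = 0.370). AT3G24450, a heavy metal transport and detoxification gene beside AT3G24460, was below the filter, with 4, 2 and 9 reads in memory plants and 12, 3 and 8 reads in wild-type plants.

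Beyond AT3G24460 comes AT3G24480, a leucine-rich repeat gene at chr3:8901154-8902835. It stood at 73.5, 33.0 and 107.5 CPM in memory plants and at 88.5, 79.7 and 82.7 CPM in wild-type plants. The wild-type plants lay close together, and the memory plants fell on both sides of them, with coefficients of variation of 52.3% in memory plants and 5.40% in wild-type plants. Its log2 fold change was -0.233, with a 95% interval of -1.15 to 0.683. The next tested gene, AT3G24490, encodes a Myb/SANT-like protein and lies 17.2 kb past AT3G24460 at chr3:8910422-8912223. It was singled out after its values were seen. It had 10.9, 10.9 and 11.1 CPM in memory plants and 5.04, 5.8 and 5.92 CPM in wild-type plants. The groups did not overlap and the spread within each was narrow, but the gene was not called, at a log2 fold change of 0.97 (SE 0.237, edgeR adjusted p = 0.0640). Without wild-type plant 23 it passed, at a log2 fold change of 0.999 (edgeR adjusted p = 0.0304), in a fit that called 5.93% of all genes tested.

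**Figure D2:**
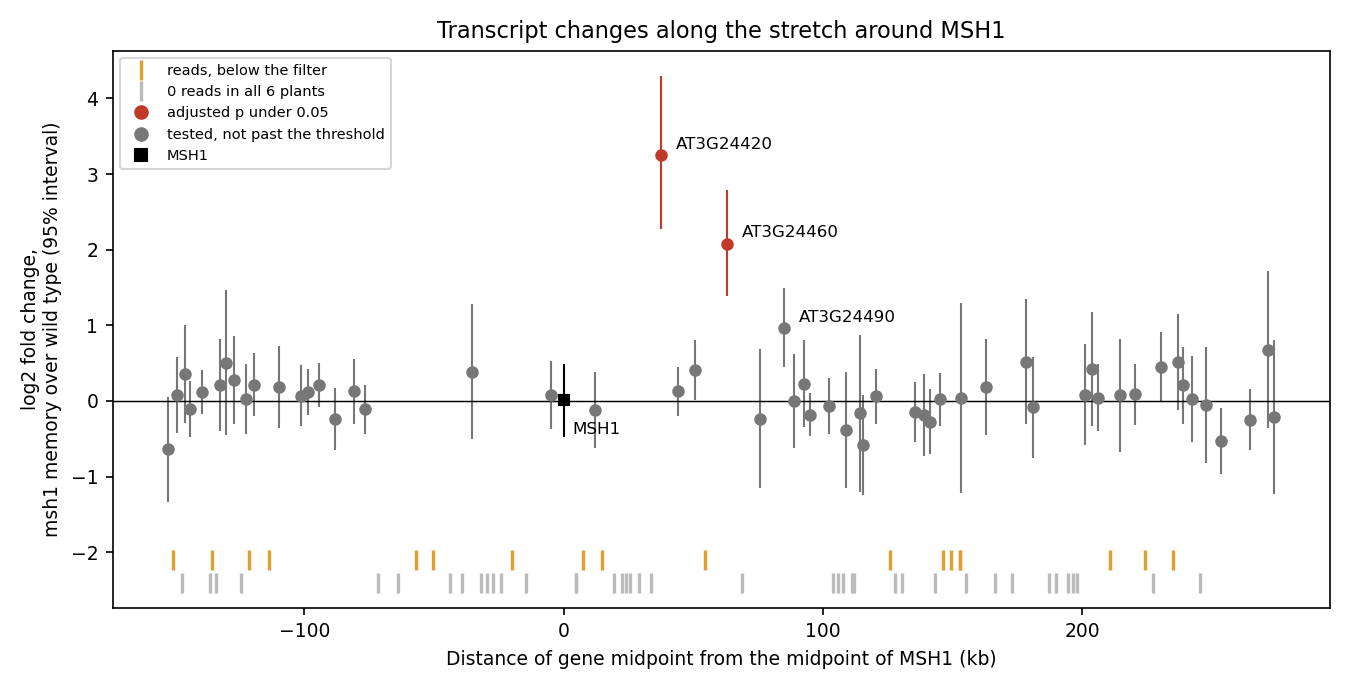
Log2 fold change of msh1 memory over wild type (vertical axis) against the distance of each gene's midpoint from that of MSH1 in kb (horizontal axis), with 95% intervals, for the 56 tested members and MSH1. Ticks at the bottom are the 18 members with reads below the filter and the annotated ones among the 41 with 0 reads. AT3G24420 and AT3G24460 stand alone at 37.7 and 63.2 kb, and the other tested members lie between -0.635 and 0.968.

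MSH1 showed no detectable difference. Its transcript was at 12.6, 13.1 and 16.9 CPM in memory plants 31, 32 and 33 and at 17.5, 12.6 and 12.2 CPM in wild-type plants 22, 23 and 24. Each group had 1 plant above the others and the ranges lay over each other, with a log2 fold change of 0.009 and a 95% interval of -0.473 to 0.491 (edgeR adjusted p = 0.991). Of the 5 loci before it in locus order, AtSec20, for a SNARE of the Sec20 family, was the one with enough reads to be tested. It had 20.5, 13.5 and 17.3 CPM in memory plants and 15.8, 14.3 and 18.4 CPM in wild-type plants, a log2 fold change of 0.076. The groups overlapped. MYB305, the ammonium transporter gene AMT1;5 and SMAP2 had 0 reads, and AMT1;3 had 1 read, in memory plant 32.

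Of the 5 loci after MSH1, the tested one was SYP32, for a syntaxin of the Golgi apparatus. It had 26.3, 24.3 and 30.7 CPM in memory plants and 20.5, 27.3 and 40.4 CPM in wild-type plants, with a log2 fold change of -0.119 (95% interval -0.618 to 0.380). The wild-type plants took in the whole range of the memory plants. The remodelling protein gene CHR40 had 0, 7 and 7 reads in memory plants and 1, 0 and 4 reads in wild-type plants. AT3G24360, of the Clp protease and crotonase family, had 6, 5 and 6 reads in memory plants and 8, 8 and 17 reads in wild-type plants, and it shares 33 exon bases with SYP32 on the opposite strand. AT3G24330, a glycosyl hydrolase gene, and AT3G24332, a long non-coding RNA that overlaps it, had 0 reads. They share 1402 exon bases on opposite strands, and how reads in shared bases were counted is not given in the sources used here. Further along, MSH7, a MutS homologue of nuclear mismatch repair, averaged 9.98 ± 2.30 CPM in memory plants and 9.91 ± 2.92 CPM in wild-type plants (SD, n = 3 each), with a log2 fold change of 0.001 and a 95% interval of -0.616 to 0.617.

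Over the 56 tested members the median log2 fold change was 0.074, beside 0.008 over all genes tested. It was positive in 37 and negative in 19, and for 46 it was smaller than 0.5 in size. The positive share was 66.1%, beside 51.2% of all genes tested, 71.0% of those from AT3G23100 to AT3G23999 and 63.5% of those from AT3G24901 to AT3G25800. For 39 members the 95% interval lay inside a 2-fold change in either direction. The groups did not overlap in 9 members, which is 16.1% of those tested beside 19.7% of all genes. Memory plants were higher in 7 of them, beside 9.52% of all genes, and lower in 2, beside 10.2%. An unadjusted p under 0.05 was found for 5 members, 8.93% of those tested beside 12.8% of all genes. Summed over all members, the level was 1796.4, 1721.7 and 1730.3 CPM in memory plants and 1647.2, 1688.3 and 1642.8 CPM in wild-type plants. Without the 2 called genes the sums were 1750.6, 1681.5 and 1684.8 CPM in memory plants and 1641.6, 1673.8 and 1634.8 CPM in wild-type plants. Memory plants were higher in both sums, by a smaller margin in the second.

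The 19 tested members before MSH1 held 0 calls and 0 members with an unadjusted p under 0.05 by edgeR, and DESeq2 made 0 calls there. Their median log2 fold change was 0.122. The 37 tested members after MSH1 held both calls (5.41%) and 5 members with an unadjusted p under 0.05 by edgeR (13.5%), with a median of 0.045. Over all genes tested these shares were 1.82% and 12.8%. The sides were not compared by a test. The loci on either side of the stretch had like counts. AT3G23100 to AT3G23999 held 62 tested genes with 2 calls, the cyclopropane-fatty-acyl-phospholipid synthase gene AT3G23510 higher (log2 fold change 1.63, edgeR adjusted p = 0.0379) and the MATE efflux gene AT3G23550 lower (log2 fold change -1.63, edgeR adjusted p = 0.0196). AT3G24901 to AT3G25800 held 52 tested genes with 2 calls, the rhodanese-domain gene AT3G25480 higher (log2 fold change 0.935, edgeR adjusted p = 0.0148) and the receptor-like protein gene RLP40 lower (log2 fold change -1.83, edgeR adjusted p = 0.0256). In the rest of chromosome 3 the share called was 1.65% of 3335 tested genes.

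**Figure D3:**
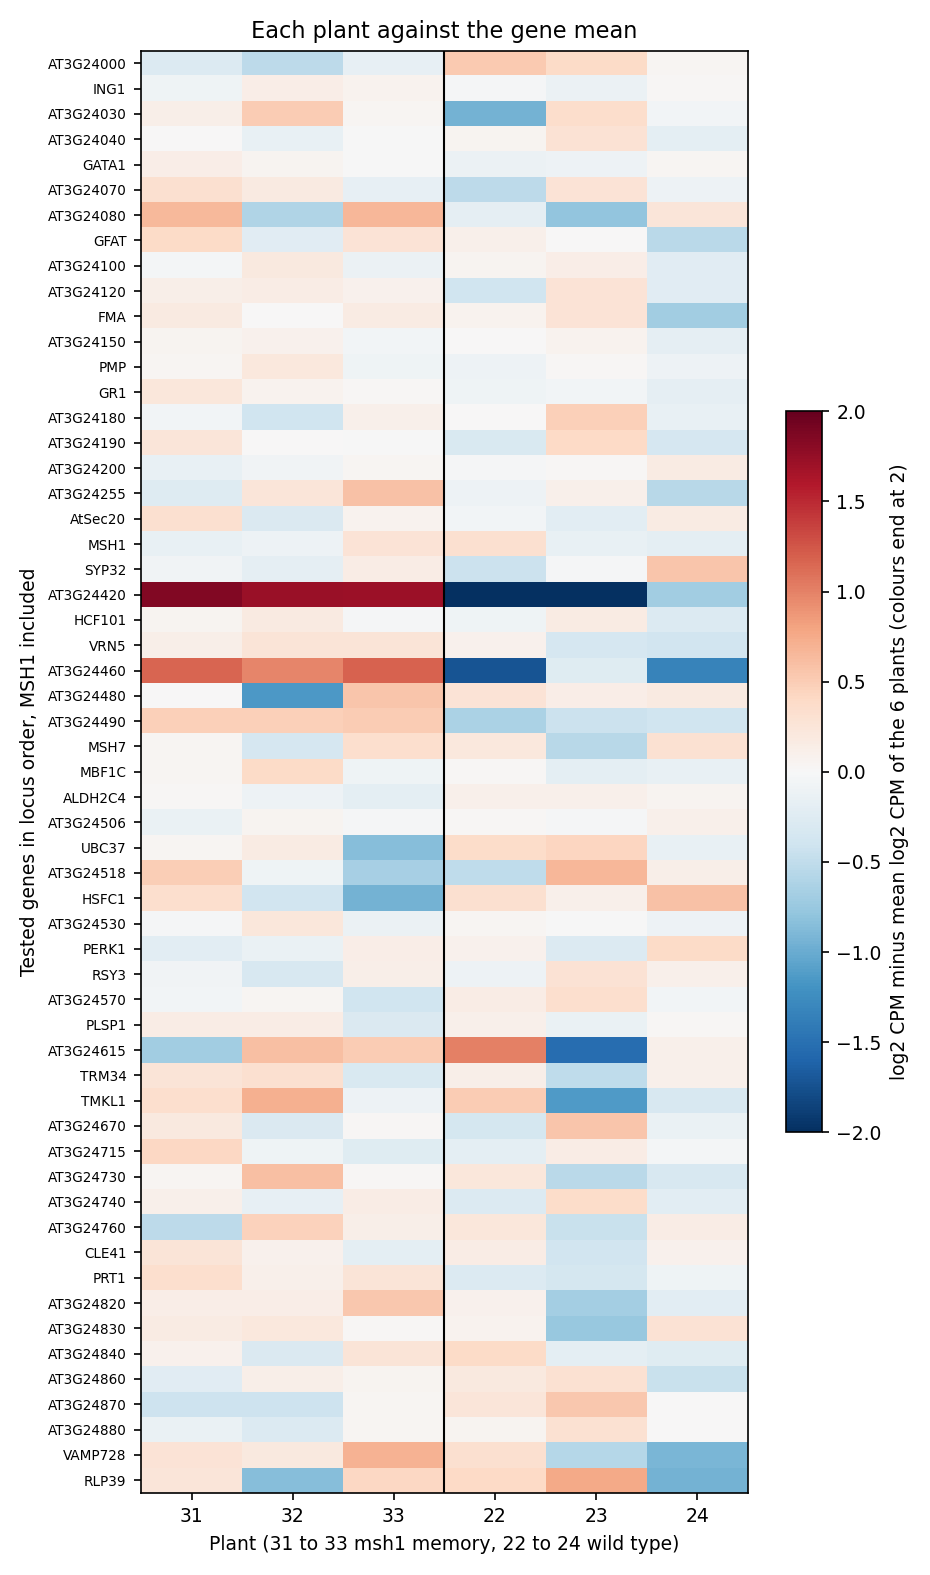
Log2 CPM of each plant minus the mean of the 6 plants (colour, in log2 units) for the 56 tested members and MSH1 in locus order from top to bottom, with memory plants in the 3 left columns and wild-type plants in the 3 right columns. The rows of AT3G24420 and AT3G24460 divide at the line between the groups, and the highest value is in wild-type plant 23 for 28.6% of tested members (23.7% of all genes tested). The lowest value is in wild-type plant 23 and in wild-type plant 24 for 25.0% of tested members each (25.6% and 17.4% of all genes tested).

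The stress and redox genes of the stretch showed 0 calls among 4 tested of 6 listed (edgeR, with 0 at an unadjusted p under 0.05 and 0 by DESeq2), and a median log2 fold change of 0.016. GR1, for the glutathione reductase that keeps glutathione in its reduced form, had 119.7, 107.2 and 104.0 CPM in memory plants and 96.4, 99.0 and 90.0 CPM in wild-type plants. Every memory plant was above every wild-type plant, but the difference did not pass (log2 fold change 0.21, SE 0.132, edgeR adjusted p = 0.559). GR1 shares 74 exon bases with its neighbour PMP on the other strand. ALDH2C4, for an aldehyde dehydrogenase that makes ferulate and sinapate, had 118.8, 108.8 and 102.6 CPM in memory plants and 126.1, 126.2 and 122.2 CPM in wild-type plants. Here every memory plant was below every wild-type plant, again without a call (log2 fold change -0.181, SE 0.130, edgeR adjusted p = 0.623).

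MBF1C, a transcriptional coactivator of the heat response, averaged 7.74 ± 1.34 CPM in memory plants and 6.61 ± 0.526 CPM in wild-type plants (SD, n = 3 each). Its log2 fold change was 0.23. MBF1C shares 114 exon bases with ALDH2C4 on the other strand, so without strand the reads there cannot be told apart. HSFC1, a class C heat shock factor, had 13.0, 7.85 and 5.32 CPM in memory plants and 12.8, 11 and 15.5 CPM in wild-type plants. Memory plant 31 was within the wild-type range and the other memory plants were below it, a log2 fold change of -0.581 that did not pass (SE 0.302, edgeR adjusted p = 0.464). The antisense long non-coding RNA AT3G24518 shares 1668 exon bases with HSFC1, so without strand their reads cannot be told apart. NCED6, for an abscisic acid synthesis enzyme, and ABI3, a transcription factor of seed maturation, had 0 reads in all 6 plants.

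Genes of transcription and chromatin had 0 calls among 7 tested of 9 listed by edgeR and 0 by DESeq2. Their median log2 fold change was 0.115, and 2 had an unadjusted p under 0.05 by edgeR, beside 12.8% of all genes tested. VRN5 was 1 of those 2. The other, AT3G24870, encodes a helicase/SANT-associated DNA binding protein. It had 15.2, 15.1 and 20.8 CPM in memory plants and 23.8, 29.2 and 20.4 CPM in wild-type plants. Memory plant 33 reached just above wild-type plant 24, so the groups overlapped, and the log2 fold change of -0.523 did not pass (SE 0.200, edgeR adjusted p = 0.283). Its neighbour AT3G24880 is 99.5% identical to it over 3319 bases of transcript, so reads may be split between them, and had a log2 fold change of -0.245.

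Of the remaining 4 tested regulators none was called. FMA, the guard cell identity factor, averaged 14.3 ± 0.928 CPM in memory plants and 12.6 ± 3.98 CPM in wild-type plants. GATA1, a GATA-type factor, averaged 47.5 ± 2.24 CPM in memory plants and 43.9 ± 2.56 CPM in wild-type plants. ING1, a reader of methylated histone H3, averaged 8.65 ± 0.683 CPM in memory plants and 8.18 ± 0.406 CPM in wild-type plants (SD, n = 3 each throughout). AT3G24120, a homeodomain-like gene, had a log2 fold change of 0.215.

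All 4 plastid protein genes were tested, with 0 calls, 0 at an unadjusted p under 0.05 and 0 by DESeq2, and a median log2 fold change of 0.076. Besides HCF101 they are PLSP1, a signal peptidase of the plastid envelope and thylakoids, with 37.9 ± 6.18 CPM in memory plants and 37.4 ± 3.09 CPM in wild-type plants, and RSY3, a gene needed for embryo development, with 7.85 ± 1.19 CPM in memory plants and 8.89 ± 1.16 CPM in wild-type plants. The protein kinase superfamily gene AT3G24190 had 134.6, 114.3 and 112.4 CPM in memory plants and 91.6, 148.9 and 90.0 CPM in wild-type plants. Plant 23 was above every memory plant and the other wild-type plants were below them.

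In the group for protein synthesis, turnover and the cell cycle, 4 of 5 listed genes were tested and 0 were called, with 0 at an unadjusted p under 0.05 and 0 by DESeq2. Their median log2 fold change was 0.33. PRT1, a ubiquitin ligase of the N-degron pathway, had 13.9, 11.9 and 13.2 CPM in memory plants and 9.18, 8.70 and 10.4 CPM in wild-type plants. The groups did not overlap, yet the gene was not called (log2 fold change 0.456, SE 0.210, edgeR adjusted p = 0.389). AT3G24830, of the ribosomal protein L13 family, had 218.0, 227.1 and 199.3 CPM in memory plants and 204.6, 115.0 and 239.1 CPM in wild-type plants, where plant 23 alone was low (log2 fold change 0.205). UBC37, a ubiquitin-conjugating enzyme gene, and AT3G24080, of the KRR1 family whose yeast member takes part in ribosome assembly, had log2 fold changes of -0.38 and 0.505 at levels of at most 6.77 CPM in a plant. ICK3, an inhibitor of cyclin-dependent kinases, was below the filter with 4, 3 and 5 reads in memory plants and 12, 5 and 14 reads in wild-type plants.

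Among 11 listed genes for wall proteins, receptor kinases and peptide signals, 6 were tested and 0 were called (0 at an unadjusted p under 0.05, 0 by DESeq2), with a median log2 fold change of -0.116. PERK1, a proline-rich receptor kinase of the cell wall, averaged 38.2 ± 4.89 CPM in memory plants and 42.2 ± 9.51 CPM in wild-type plants, while PERK2 and PERK3 had 0 reads. CLE41, whose peptide keeps vascular cambium cells dividing, averaged 30.1 ± 4.64 CPM in memory plants and 28.4 ± 5.36 CPM in wild-type plants. TMKL1, a transmembrane kinase-like gene, had 12.8, 16.7 and 9.48 CPM in memory plants and 14.4, 4.64 and 8.18 CPM in wild-type plants. Plant 23 was the lowest of all, and the log2 fold change of 0.518 had a 95% interval of -0.308 to 1.35.

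RLP39, a receptor-like protein gene, averaged 4.44 ± 1.79 CPM in memory plants and 5.12 ± 2.60 CPM in wild-type plants. The pectin lyase-like gene AT3G24670 had a log2 fold change of -0.085. The pectin lyase-like gene AT3G24130 and the pectate lyase gene AT3G24230 had at most 2 reads in a plant. The receptor kinase gene AT3G24240 had 0 reads. Neither listed ammonium transporter gene, AMT1;3 or AMT1;5, had enough reads to be tested.

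Membrane traffic was represented by 3 tested genes with 0 calls, 0 at an unadjusted p under 0.05 and 0 by DESeq2. VAMP728, a vesicle SNARE gene, had 2.78, 2.62 and 3.70 CPM in memory plants and 2.88, 1.55 and 1.22 CPM in wild-type plants. Wild-type plant 22 lay among the memory plants, and the log2 fold change of 0.675 had a 95% interval of -0.351 to 1.72. It passed the filter through the memory plants, since 1 wild-type plant reached the filter level. The list with AT3G24420 and AT3G24460 was drawn up with their calls known, so its 2 calls of 2 genes add nothing to their own values.

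A further 2 members had groups that did not overlap. AT3G24000, a tetratricopeptide repeat gene and the first locus of the stretch, had 4.06, 3.42 and 4.39 CPM in memory plants and 7.02, 6.38 and 5.05 CPM in wild-type plants. Memory plants were lower throughout, and the log2 fold change of -0.635 did not pass (SE 0.317, edgeR adjusted p = 0.438). AT3G24820, a BSD domain gene, had 7.48, 7.44 and 9.94 CPM in memory plants and 7.20, 4.25 and 5.92 CPM in wild-type plants, with memory plants higher throughout (log2 fold change 0.509, SE 0.291, edgeR adjusted p = 0.519).

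Per kb of exon, the tested members had a median level of 7.47 CPM, beside 10.4 CPM over all tested genes with an annotated length. The highest was AT3G24830, at 197.0 CPM per kb, then the membrane protein gene PMP at 120.9, HCF101 at 67.1, ALDH2C4 at 60.4, AT3G24480 at 46.1, GR1 at 44.3 and AT3G24190 at 41.4 CPM per kb. The lowest was AT3G24255, annotated as related to reverse transcriptase, at 0.925 CPM per kb, and it shares near-identical stretches with AT3G62725 and AT3G23910. AT3G24460 averaged 12.1 CPM per kb in memory plants and 2.86 CPM per kb in wild-type plants. AT3G24420 averaged 5.19 CPM per kb in memory plants and 0.524 CPM per kb in wild-type plants, the lowest mean of any tested member in either group.

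**Figure D4:**
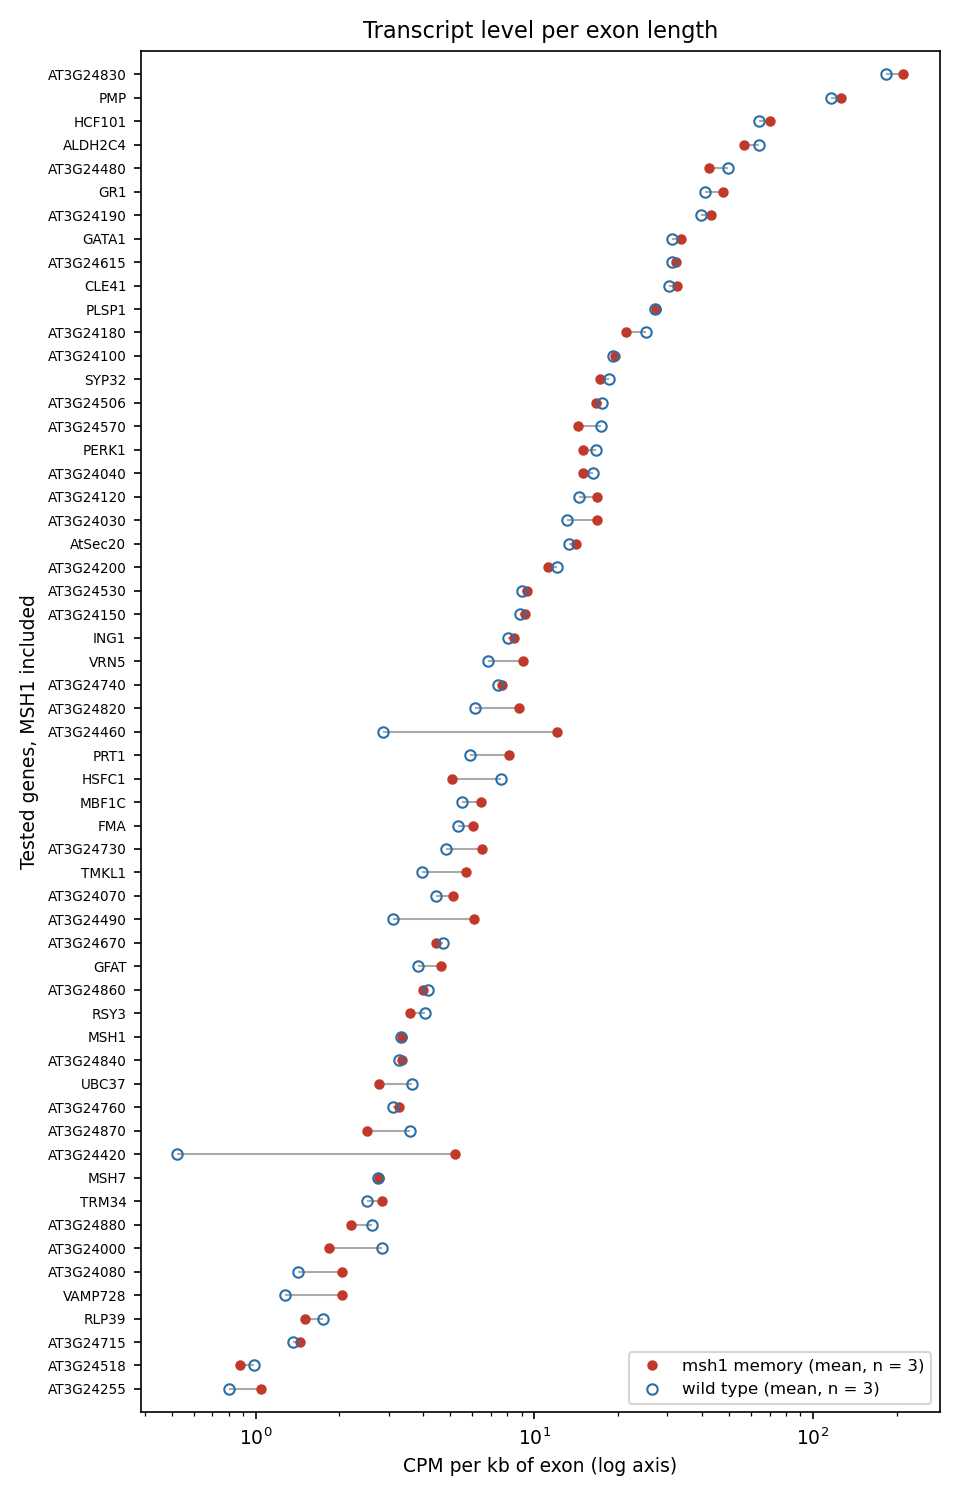
Mean level in CPM per kb of exon (horizontal log axis) for the 56 tested members and MSH1, ordered by their mean over all plants, with filled points for memory plants and open circles for wild-type plants (n = 3 each). The widest gaps belong to AT3G24420 and AT3G24460, and AT3G24830 is at the top.

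The 41 loci with 0 reads and the 18 below the filter are mostly protein-coding genes. A count of 0 allows up to 0.522 to 0.694 CPM in a library. Of the 100 protein-coding members, 54 were tested, 15 were below the filter and 31 had 0 reads, and the 7 loci annotated as pseudogenes had 0 reads. Of the 2 annotated as transcribed pseudogenes, PERK2 had 0 reads and AT3G24005 had 3 reads, all in wild-type plant 23. Loci with 0 reads include defensin-like genes, self-incompatibility protein genes, NCED6 and ABI3. A block of 5 pseudogenes from AT3G24365 to AT3G24390, between AT3G24360 and PERK2, is among them. Those 5 have near-identical copies elsewhere in the genome, and how reads with several matches were counted is not given in the sources used here, so what this does to their count was not tested. Members below the filter had at most 17 reads in a plant. Together they had 33, 44 and 49 reads in memory plants and 53, 44 and 63 reads in wild-type plants.

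The closest relatives of the 2 risen genes elsewhere in the genome were set beside them by protein search. The nearest to AT3G24420 is KAI2, the karrikin receptor, at 42.6% identity over 258 residues. KAI2 had 97.7, 94.5 and 87.4 CPM in memory plants and 81.3, 113.5 and 90.3 CPM in wild-type plants. The groups overlapped, and the log2 fold change of -0.028 had a 95% interval of -0.359 to 0.304 (edgeR adjusted p = 0.966). D14 (AT3G03990), the strigolactone receptor, is 39.8% identical over 259 residues and had 30.3, 34.6 and 26.1 CPM in memory plants and 32.7, 37.7 and 29.4 CPM in wild-type plants (log2 fold change -0.130, edgeR adjusted p = 0.811).

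For AT3G24460 the nearest relative is MEE55, another Serinc-domain gene, at 82.0% identity over 389 residues. MEE55 averaged 12.3 ± 2.47 CPM in memory plants and 14.5 ± 5.75 CPM in wild-type plants (SD, n = 3 each). Wild-type plants, between 9.05 and 20.5 CPM, took in the range of the memory plants, with a log2 fold change of -0.225 and a 95% interval of -0.859 to 0.409 (edgeR adjusted p = 0.817). The Serinc-domain genes AT3G06170 and AT1G16180 had log2 fold changes of -0.062 and -0.027, and AT2G33205 was below the filter.

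Of the 56 tested members, 30 had such a relative outside the stretch and 28 of these were tested. By edgeR 0 of the 28 were called, beside 1.82% of all genes tested, and by DESeq2 0, beside 2.81%. An unadjusted p under 0.05 by edgeR was found for 4, beside 12.8% of all genes tested. The median log2 fold change of the 28 was -0.046 and their range -0.663 to 1.56. The highest was AT1G72210, a bHLH gene related to FMA, at 4.27, 3.62 and 3.93 CPM in memory plants and 1.08, 0.193 and 2.61 CPM in wild-type plants (edgeR adjusted p = 0.282). On chromosome 4 lie 10 of the 30, and 6 of those fall between AT4G12000 and AT4G14999, among them MEE55, LRX3 beside AT3G24480, CLE44 beside CLE41 and UNE16 beside AT3G24120.

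**Figure D5:**
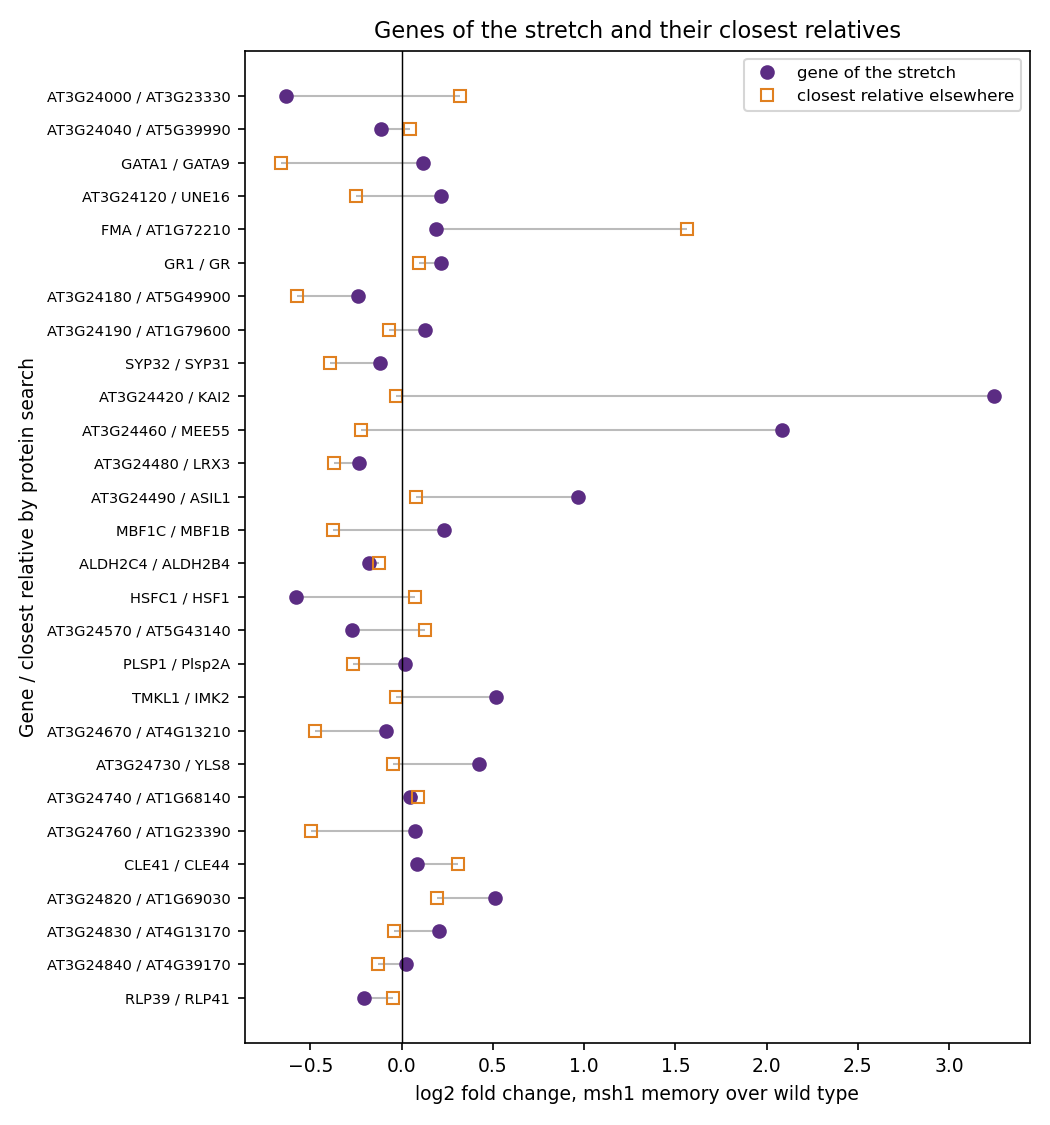
Log2 fold change of msh1 memory over wild type (horizontal axis) for 28 tested members (filled circles) and the closest relative of each outside the stretch (open squares). The relatives of AT3G24420 and AT3G24460 lie near 0, at -0.028 and -0.225.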

How the data were processed

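The authors deposited whole-number counts of reads for each locus, in 1 file per plant. TAIR10 and DESeq2 appear in the submitters' processing notes. Aligner, counting program, use of strand and treatment of reads with several matches: not given in the sources used here. The TruSeq v2 kit named in the labels' protocols does not mark strand. Of the 56 tested members, 26 share exon bases with another annotated gene on either strand.

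Counts were fitted for all genes in R 4.3.3 with edgeR 4.0.16 (filterByExpr, minimum count 10 and minimum total 15; TMM; robust quasi-likelihood test, two-sided). P-values were adjusted by Benjamini-Hochberg over 16928 genes, with a threshold of 0.05. Each SE is the fold change divided by the root of its F value. The fit was also run on counts simulated from its own estimates, which cannot show how well its model describes these plants.

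Symbols, positions and sequences came from RefSeq's TAIR10.1. Relatives were found with BLAST+ 2.17.0 (blastp, coverage of at least 50%). Named genes are MSH1, called members, the 5 loci on each side of MSH1, the role lists and the closest relatives. Other genes, among them members whose groups did not overlap or had the highest or lowest levels, were chosen after their values were seen. Members and lists were chosen with earlier results of these data known. Alternatives were DESeq2 1.42.0, other scalings, filters, boundaries and thresholds, and leaving out each plant.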

Additional observations from a re-analysis of the deposited data

How the results depend on the processing

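The 2 calls, AT3G24420 and AT3G24460, were the calls among members under DESeq2, DESeq2 size factors in edgeR, library totals, both other low-count filters, a fit without robust estimation and the narrower boundary from AT3G24200 to AT3G24500. With an adjusted p under 0.01 there was 1 call, both among all members and after MSH1. The wider boundary from AT3G23500 to AT3G25400 held 5 calls, 3 higher and 2 lower. Leaving out 1 plant gave 0 to 3 calls among members, and likewise after MSH1: 0 without memory plant 31 or 33, 1 without memory plant 32, and 3 without wild-type plant 23, where AT3G24490 was added. Among the members before MSH1 there were 0 calls under each other method, scaling, filter and threshold, and with any 1 plant left out. The wider boundary took in 2 calls on that side, AT3G23510 and AT3G23550, which lie outside the stretch. Over all genes the calls numbered 308, with 523 by DESeq2 and 98 at an adjusted p under 0.01. They numbered 34, 65 and 38 without memory plant 31, 32 and 33. Without wild-type plant 22, 23 and 24 there were 210, 1019 and 254. Library totals gave 98 higher and 173 lower genes, beside 76 higher and 232 lower with TMM, and moved the median log2 fold change of all genes to 0.074 and of members to 0.139. The log2 fold change of MSH1 ran from -0.131 to 0.194 when 1 plant was left out and was never called. The cause of these shifts was not tested. Leaving out 1 plant, of either group, leaves fewer degrees of freedom. No paired analysis was possible because the groups share no plant number. Depth limits the 18 members below the filter, for which no difference was detectable.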
